A study of Mus musculus with 3 samples.

Results

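The windows described here are stretches of 500 bp of the mouse genome that carried a methylation signal in sperm of vehicle-treated mice and little in sperm of mice given doxorubicin (DXR), an anthracycline drug that poisons topoisomerase II. Windows were selected on the deposited methylation score, RMS, which had to be 2 or more in the control library and 1 or less in both treated libraries. The rule chose 552 of the 143198 windows in the table, which is 0.385% of them. All 3 libraries were made from sperm of the cauda epididymis of C57BL/6 mice, aged 14 weeks per the labels. The control mice received vehicle, per the labels' protocols saline. The low dose mice received DXR at 0.02 mg/kg and the high dose mice at 0.2 mg/kg, and all 3 groups were injected intraperitoneally 2 times a week for 5 weeks from 8 weeks of age, with sperm taken 4 days after the final injection. There was 1 library per group, and the sources used here do not give the number of animals behind each. No difference below therefore has a replicate check, no p-value was computed, and what belongs to a group cannot be told apart from what belongs to its library. Because RMS of all 3 libraries chose the windows, their RMS is given as a description, and the same control library sets both of their differences. Triplets of values follow the order control, low dose, high dose.

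MBD-seq captures DNA fragments with the methyl-CpG-binding domain of MBD2, so read density at a place follows how many of its CpG sites carry methyl groups. A window with few CpG sites binds weakly even when each site is methylated. Mature sperm DNA is methylated over most of the genome, gene bodies and intergenic sequence included, while CpG-rich promoters are largely free of methylation. Sperm carries methylation at paternally imprinted loci such as H19, and lacks it at the promoters of germline genes that somatic cells methylate. In these libraries, 6 of 7 genes of the paternally methylated list had listed windows, 26 in all, with median RMS of 2.46, 2.34 and 2.1998. Of 24 germline genes that somatic cells methylate at their promoters, 0 had an upstream or exon 1 window in the table. The table covers few promoters, as listed windows overlapped 1503 of the 32851 RefSeq promoter stretches described below. Nothing about the tissue is read from this 0. The bodies of 11 of these germline genes held 40 listed windows. Of the 26 and the 40 windows, 0 were among the 552. Members made up 0.385% of all windows, so sets this small could hold none at that share, and nothing is read from the 0.

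Sequence of the windows could be shown only where a RefSeq promoter stretch, 250 bases before to 50 after a gene start on GRCm38.p6, the same assembly as mm10, overlapped one. This held for 3 of the 552 windows, and all 3 are printed for the part inside the window, on the gene's strand, with each CpG, the site that methylation and MBD2 use, in capitals.
Mrln (chr10:70204501-70204713, plus strand): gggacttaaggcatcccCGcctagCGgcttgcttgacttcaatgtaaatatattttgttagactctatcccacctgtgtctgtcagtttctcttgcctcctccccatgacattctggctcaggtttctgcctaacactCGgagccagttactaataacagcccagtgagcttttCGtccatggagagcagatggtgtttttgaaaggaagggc
Gm12405 (chr4:41642725-41643000, plus strand): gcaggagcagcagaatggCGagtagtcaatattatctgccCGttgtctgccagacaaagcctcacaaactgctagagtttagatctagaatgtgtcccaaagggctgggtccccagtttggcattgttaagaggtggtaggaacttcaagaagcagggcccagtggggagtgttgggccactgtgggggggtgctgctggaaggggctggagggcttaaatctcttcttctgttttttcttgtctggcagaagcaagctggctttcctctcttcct
Gm10369 (chr5:134676001-134676167, plus strand): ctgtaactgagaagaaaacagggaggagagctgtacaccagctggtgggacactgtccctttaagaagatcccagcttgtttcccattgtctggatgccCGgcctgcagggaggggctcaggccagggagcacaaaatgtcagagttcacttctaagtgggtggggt
The promoter of Zmynd8, a gene for a chromatin reader protein, is given for contrast, as a CpG-rich promoter of a named coding gene that lay whole inside a window with RMS of 2 or more in all 3 libraries.
Zmynd8 (chr2:165858124-165858423, minus strand): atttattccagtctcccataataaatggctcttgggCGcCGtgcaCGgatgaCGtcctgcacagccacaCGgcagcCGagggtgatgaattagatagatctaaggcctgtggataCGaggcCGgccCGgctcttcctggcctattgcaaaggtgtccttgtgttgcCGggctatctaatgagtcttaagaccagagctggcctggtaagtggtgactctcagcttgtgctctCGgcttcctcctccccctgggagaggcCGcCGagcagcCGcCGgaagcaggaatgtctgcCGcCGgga
The Mrln stretch held 4 CpG in 213 bases, the Gm12405 stretch 2 in 276 and the Gm10369 stretch 1 in 167, while the Zmynd8 stretch held 17 in 300. Over all 32851 RefSeq promoters, 94.6% held the letters CG at least once, read on 1 strand since CG is its own complement, and the median was 7 per 300 bases.

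Mrln, listed in the table as 2310015B20Rik, encodes the muscle micropeptide myoregulin. The window at its exon 1 had RMS 2.25, 0.622 and 0.611. Gm12405 had RMS 2.01, 0.935 and 0.168, and the window shared by Gm10369 and an intron of Limk1, an actin-regulating kinase gene, had 2.06, 0.682 and 0.531. The Zmynd8 window had 3.24, 5.41 and 4.84. The treated libraries were above the control library in the Zmynd8 window and below it, as the rule requires, in the 3 members. Zmynd8 is 1 window, and nothing is read from its rise. In windows with control RMS of 2 or more that were not members, median RMS was 3.01, 2.96 and 2.93. Mrln, Gm12405 and Gm10369 were named after their values were seen, because they are the members with a promoter sequence.

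A single member lay in the annotated upstream flank of a gene, Mir495, and it too was named after its values were seen. Mir495 is a microRNA gene of the large imprinted microRNA cluster on chromosome 12 that is linked to Dlk1 and Meg3. The window (chromosome 12, 109718001 to 109718500) had RMS 2.45, 0.960 and 0.672. It ends 257 bp before the mature 5p product. The mature products are shown with the seed, bases 2 to 8 from the 5' end, in capitals.
mmu-miR-495-5p: gAAGUUGCccauguuauuuuucg
mmu-miR-495-3p: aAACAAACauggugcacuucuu

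Over the 552 windows, control RMS ran from 2 to 4.58 with a median of 2.19. Low dose RMS ran from 0.0949 to 0.9999 (median 0.788) and high dose RMS from 0 to 0.999 (median 0.701). Many members lay close to a limit, with control RMS under 2.5 in 449 of them and a treated value above 0.9 in 210. Only 9 had control RMS of 3 or more, and in 37 both treated libraries were at or below 0.5. No member was listed at 0 at the low dose. At the high dose 2 were listed at 0, both intergenic.

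The high dose value was below the low dose value in 336 members, or 60.9%, against 56.3% of all windows and 59.2% of the windows of like read density described below. Neither treated library was thus the lower one throughout. The change in a window is given as log2((treated RMS + c)/(control RMS + c)), where the pseudocount c of 0.766 is the 10th percentile of RMS values above 0. The medians were -0.98 (low dose) and -1.07 (high dose). A change of -1, 2-fold on this scale, was reached by 254 members at the low dose, by 319 at the high dose and by 189 at both. Over all 143198 windows, it was reached by 1777 (1.24%), 3605 (2.52%) and 785 (0.548%). Changes of 2-fold upward made up 0.12% of all windows at the low and 0.0824% at the high dose. The rule used the same contrast, and nothing is read from these counts.

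**Figure D1:**
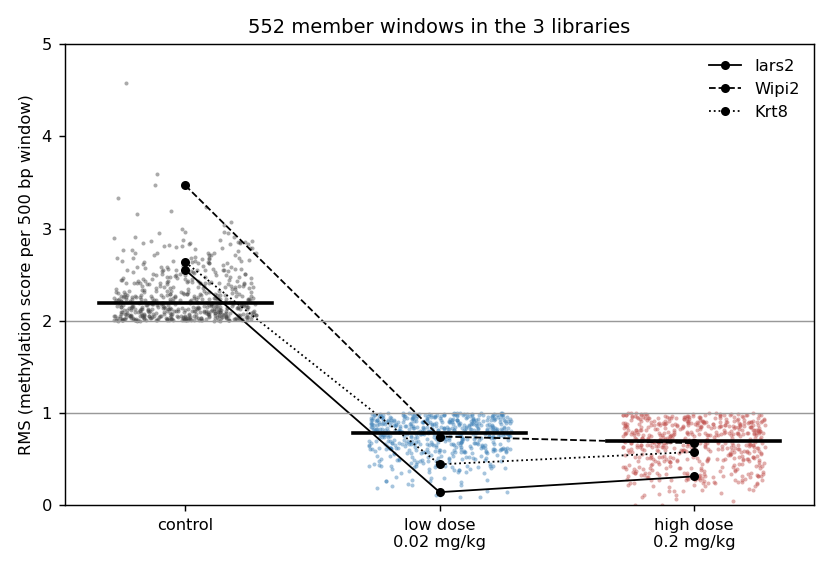
RMS of the 552 member windows in each library, 1 point per window, with black bars at the medians of 2.19, 0.788 and 0.701 and grey lines at the limits of 2 and 1. Lines join the values of Iars2, Wipi2 and Krt8; the gap between the libraries is what the rule selected.

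Just inside the limits lay an intronic window of Phactr1, a phosphatase and actin regulator gene, with control RMS 2.0001 where 2 was needed, and an intergenic window on chromosome 14 (15551501 to 15552000) with low dose RMS 0.9999. Just outside lay an intergenic window on chromosome 1 (112266001 to 112266500) with RMS 1.99997, 0.789 and 0.628, and a window of Plcg1 and Zhx3 with 1.9999, 0.828 and 0.584.

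A single control library sets both differences of such windows, so the same rule was applied with the libraries' roles exchanged. With the low dose library at 2 or more and the other 2 libraries at or below 1, it gave 30 windows (0.021%), and with the high dose library in that role it gave 8 (0.00559%). Among windows at 2 or more in the control library, 0.888% were members. For the treated libraries the same share was 0.052% (low dose) and 0.0146% (high dose). With roles reversed in the other sense, the control library alone was at or below 1, with both others at 2 or more, in 30 windows (0.021%), the low dose library in 13 (0.00908%) and the high dose library in 121 (0.0845%).

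This excess of control-only windows depended on how the libraries were scaled. As deposited, RMS exceeded 1 in 91.0%, 80.4% and 73.5% of listed windows, so the limits sat at different ranks in each. Division by library medians left 274 control-only windows against 30 (low dose) and 22 (high dose). Quantile normalization, which gives the libraries the same distribution, left 256 against 31 and 25. After subtraction of the trend in read density and CpG factor, the 3 numbers were 96, 50 and 60, and 95 of those 96 windows were members under the deposited values. Of the 3 classes with 1 library high, the control-only class stayed the most numerous under each of these scalings. The reverse class, with the control library alone low, grew from 30 windows to 65, 119 and 121 under the 3 scalings, and so outnumbered the control-only class once the trend was subtracted. Under all 3 scalings 85 of the 552 windows met the rule. With RPM in place of RMS, at limits of the same rank, 13 windows were control-only and 4 of them were members. The upper RPM limit, 2.89, lay above the 90th percentile of the members' control RPM, 2.74. Most members could not reach it whatever their treated values, so their loss by RPM does not check the rule.

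**Figure D2:**
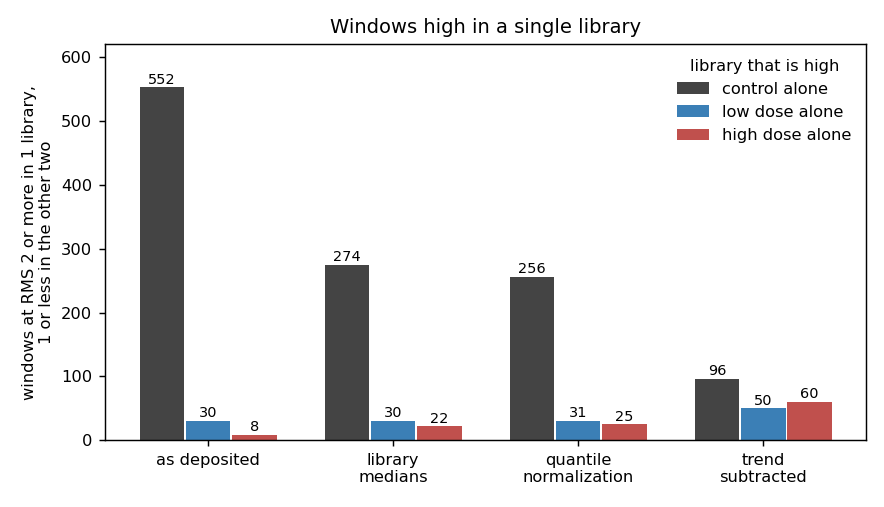
Number of windows at RMS 2 or more in 1 library and at or below 1 in the other two, for each library in the high role, with RMS as deposited and under 3 scalings. As deposited the bars are 552, 30 and 8, and after subtraction of the trend they are 96, 50 and 60.

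Conditional shares were compared in the same way. Of 955 windows with control RMS of 2 or more and low dose RMS at or below 1, the high dose library was also at or below 1 in 552, or 57.8%. Taken in the other order, the low dose library was at or below 1 in 28.9% of the 1907 windows high in the control and low in the high dose library. Of 159 windows at 2 or more in the low dose library and at or below 1 in the control library, the high dose library was at or below 1 in 18.9%. Of 56 windows high in the high dose and low in the low dose library, the control library was at or below 1 in 14.3%. The remaining orders gave 7.14% of 112 windows high in the high dose and low in the control library, and 8.70% of 345 high in the low dose and low in the high dose library. The libraries' difference in level enters all of these shares.

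Read density, RPM, was low in the members even in the control library. The median control RPM was 1.88 in members, against 4.24 in the other windows with control RMS of 2 or more and 2.42 in all windows. In the treated libraries the members had median RPM of 0.670 and 0.582. Control RPM divided by treated RPM had medians of 2.74 (low dose) and 3.26 (high dose), against 0.993 and 1.09 over all windows. RPM was at least 2-fold lower at both doses in 514 of the 552, against 4.78% of all windows. RPM comes from the same reads as the RMS that chose the windows, and nothing is read from this count. An exception was an intronic window of Tmcc3, a transmembrane protein gene (chromosome 10, 94536001 to 94536500), where RPM was 6.76, 4.82 and 4.33 while RMS was 2.05, 0.903 and 0.822. It was chosen after its values were seen.

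RPM values of each library were whole multiples of 1 step, within 0.05 of a step, but the size of a step in reads is unknown. A member's control RPM was a median of 88 steps, its low dose RPM 34 and its high dose RPM 27. The number of reads behind a window, and so its counting error, cannot be given. The share of control-only windows was highest where density was lowest. Among windows with control RMS of 2 or more, it was 7.42% where control RPM was under 1.5 and 5.49% from 1.5 to 2. It was 0.0151% at 4 or more, which is 5 of 33219 windows. The low dose library in the high role followed the same order, from 0.701% under 1.5 to 0% at 4 or more. The high dose library did not, with 0.162%, 0.0337%, 0.0713% and 0.0425% in the 4 bands up to 3, then 0%, from 8 windows in all. The part of low read density in the members' values was not tested.

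**Figure D3:**
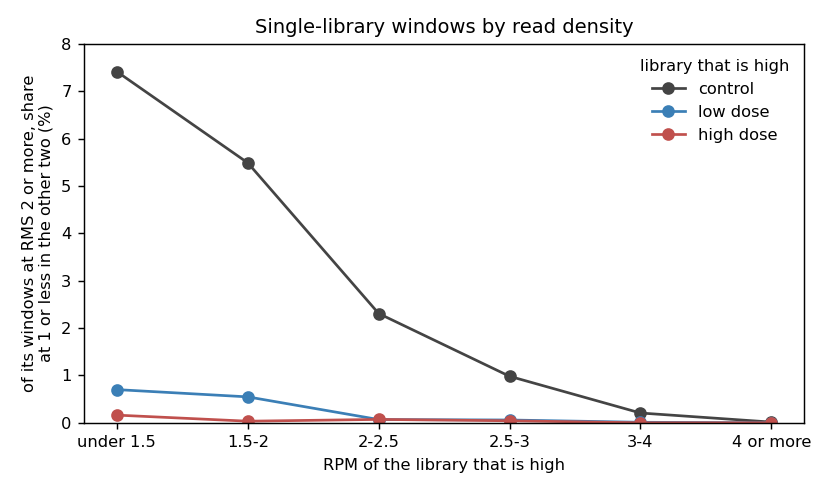
Share of windows with RMS of 2 or more in 1 library that were at or below 1 in the other two, by RPM of the library in the high role (x axis) and for each library in that role. The control curve runs from 7.42% to 0.0151% and the low dose curve starts at 0.701%.

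CpG content was estimated from the scores, since no window sequence was at hand. RMS divided by AMS, a second deposited score, gave 1 number per window, called the factor here, which was equal within 0.01 between libraries for all 552 members. In 404 promoters that lay whole inside a listed window, the factor tracked the CpG count of the sequence. Pearson's r was 0.859 and Spearman's rho 0.766 across promoters, which are not independent replicates. The median CpG count per 300 bases was 5 at a factor of 2 or less, 8 from there to 3, and 11 from 3 to 4. It was 23 above 6, in 10 promoters. The median factor of members was 2.4, with quartiles of 2.0 and 2.6. It was 3.0 in the other windows with control RMS of 2 or more, and 2.6 in all windows.

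No member had a factor above 3.6, while 18781 windows with control RMS of 2 or more did. The share of such control windows that were members was 2.73% at factors above 1.8 and up to 2.2, and 0.133% at factors above 3.0 and up to 3.6. Windows alone high in the low dose library had a median factor of 2.2, those alone high in the high dose library 2.6, and those alone low in the high dose library 2.4. Other windows with control RMS of 2 or more and control RPM between 1.39 and 2.74, the 10th and 90th percentile of members, had a median factor of 2.4 as well. These 13369 windows serve below as the comparison of like density and were chosen after the data were seen.

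**Figure D4:**
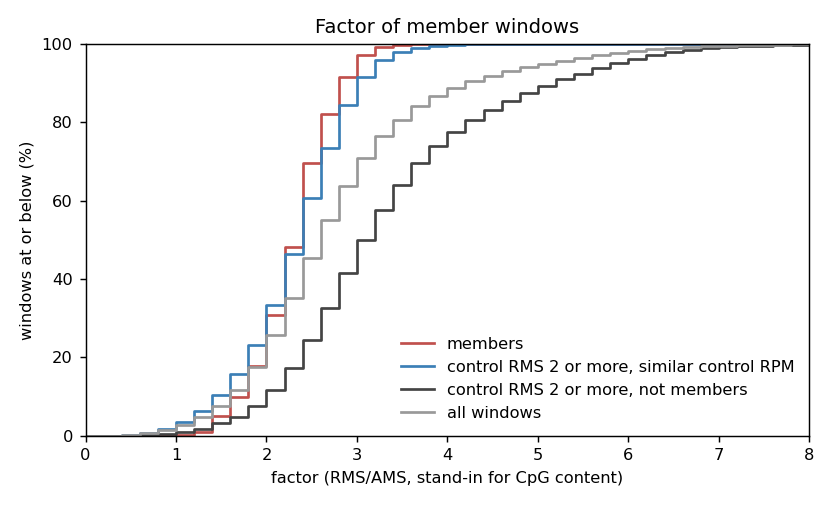
Cumulative share of windows by factor, the stand-in for CpG content, for members, for other windows with control RMS of 2 or more, for those among them with similar control RPM, and for all windows. The member curve reaches 100% at a factor of 3.6, with its median at 2.4 against 3.0 for the other control windows.

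By annotation, 213 members (38.6%) were intronic, 191 (34.6%) intergenic and 145 (26.3%) exonic, with exon taken before intron where both applied. The intronic share was 26.8% in the other windows with control RMS of 2 or more and 34.01% in those of like density. The exonic share was 28.1% and 30.2% in these 2 sets, and the intergenic share 44.6% and 35.1%. Exon 1 of a transcript was met by 14 members, or 2.54%, against 4.01% and 4.39%. The 361 gene-annotated members, 0.44% of all gene-annotated windows, carried 359 gene symbols.

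Along genes, members had their median position at 0.670 of the gene length from the start. It was 0.642 for the other windows with control RMS of 2 or more and 0.625 for those of like density. The last 40% of the gene held 28.7% of members in its nearer and 28.04% in its farther 20%, over the 321 members that could be placed on 1 RefSeq gene. For the other windows with control RMS of 2 or more these were 24.4% and 30.2%. The genes had a median length of 104 kb, against 86.5 kb for the other control windows and 86.0 kb for those of like density. Intergenic members lay a median of 40.1 kb from a protein-coding gene. This was 61.2 kb for the other control windows and 53.7 kb for all intergenic windows, and those of like density were not measured. Within 10 kb of such a gene lay 39 of the 191 (20.4%), near the 19.4% of all intergenic windows.

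Members lay on all autosomes. The share of windows with control RMS of 2 or more that were members ran from 0.598% on chromosome 4 to 1.17% on chromosome 14. The X chromosome held 2 members of 1300 such windows, or 0.154%, and the Y chromosome 0 of 463. One of the X windows covers exonic sequence of Mum1l1, now Pwwp3b (chromosome X, 139235501 to 139236000), with RMS 2.36, 0.597 and 0.280. In the windows of like density the X chromosome made up 1.24%, against 0.362% of members.

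Neighbouring windows were not used by the rule. They come from the same libraries, and a touching window can share DNA fragments, sonicated to about 300 bp per the labels' protocols, with the member. For 384 of the 552 members (69.6%), neither touching window was in the table, against 45.7% of windows of like density. Since the table holds only windows with RMS above 1 in at least 1 library, both sides were then at or below 1 in all libraries or not analysed here. The 174 touching windows that were listed had median RMS of 1.83, 1.35 and 1.15. Their median changes were -0.37 (low dose) and -0.49 (high dose), and 138 of them (79.3%) were below control at both doses, against 46.5% of all windows. The filter of the table bears on these values, since a touching window low in both treated libraries is listed only through the control library. RMS was above 1 in all 3 libraries in 51.1% of these touching windows, against 72.4% of touching windows of the set of like density.

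At 1000 to 2500 bp the 374 listed windows had a median RMS of 1.84, 1.74 and 1.55. Their median changes of -0.08 and -0.15 lay near those of all windows, -0.05 and -0.10. Touching windows of the comparison set of like density had median changes of -0.06 and -0.08. A 2-fold lower value at both doses was met by 4 of the 174 touching windows (2.30%), against 0.548% of all windows. These 4 were in an intron of Ctnnd2, a neuronal catenin gene, in an intron of Nr3c2, the mineralocorticoid receptor gene, in exonic sequence of Mum1l1 on the X chromosome, and in intergenic sequence of chromosome 13, and were named after their values were seen. The Nr3c2 window had RMS 3.64, 1.43 and 0.497. In the other windows RMS was 1.20, 0 and 0.0452 (Ctnnd2), 1.72, 0.445 and 0.164 (Mum1l1), and 1.41, 0.116 and 0.271 (chromosome 13). Both treated values lay below 1 there, so these windows were listed only through the control library. Nothing is read from the count of 4. Around windows low in the high dose library alone, the high dose median was -0.50 in 54 touching windows and -0.09 in 98 windows farther out, while the low dose median was -0.11 and -0.13.

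**Figure D5:**
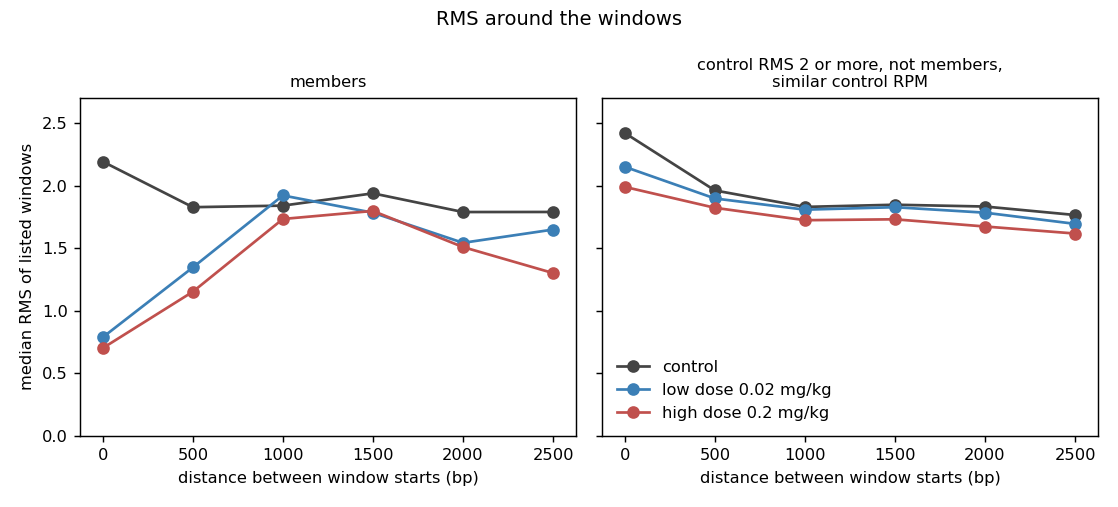
Median RMS of listed windows against the distance of their start from a member (left) and from other windows with control RMS of 2 or more and like control RPM (right), by library, with the chosen windows at 0. Around members the libraries are apart in touching windows, at 1.83, 1.35 and 1.15, and come closer at 1000 bp, with the high dose library lower again at 2500 bp.

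Runs of touching members were few, with 5 pairs in all. The pair in an intron of Fstl5, a follistatin-like gene (chromosome 3, 76509501 to 76510500), had RMS 2.65, 0.967 and 0.814 in the first window and 2.04, 0.595 and 0.596 in the second. The pair in an intron of Cmip, an adaptor protein gene (chromosome 8, 117339001 to 117340000), had 2.22, 0.806 and 0.618, then 2.43, 0.996 and 0.658. The other 3 pairs were intergenic, on chromosomes 4, 13 and 15. That on chromosome 13 (54286001 to 54287000) reached the lowest values, with 0.325 and 0.110 at the high dose. Only 6 members started within 10 kb of the member before them.

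Of the genes with members, 20 were taken for the largest depth, the log2 difference between control RMS and the larger treated RMS with c added to each. The choice rests on the values shown, which are a description. Exonic windows made up 9 of the 20. The window of Iars2, a mitochondrial isoleucyl-tRNA synthetase gene (ENSMUSG00000026618; chromosome 1, 185312001 to 185312500), had RMS 2.55, 0.144 and 0.314, a depth of 1.62. Sort1, the gene of the sorting receptor sortilin (ENSMUSG00000068747; exon 5, chromosome 3, 108325501 to 108326000), had 2.26, 0.295 and 0.167. Tsc2, which encodes tuberin, an inhibitor of mTOR signalling (ENSMUSG00000002496; exon 15, chromosome 17, 24619001 to 24619500), had 2.33, 0.277 and 0.334. The high dose value was the lower of the treated values in Sort1 and the higher in Iars2 and Tsc2.

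Wipi2, an autophagy gene whose product binds phosphoinositides (ENSMUSG00000029578; exon 12, chromosome 5, 142666501 to 142667000), had the largest control value among these exonic windows, at 3.47, with 0.747 and 0.674 after treatment. Krt8, the gene of a keratin of simple epithelia (exon 8, chromosome 15, 101997501 to 101998000), had 2.64, 0.445 and 0.579. Nbeal2, a gene needed for platelet granules (chromosome 9, 110626501 to 110627000), had 2.96, 0.675 and 0.629. Cttnbp2nl, Lsm11, a gene of the U7 snRNP that processes histone mRNA, and Lrrc16a, an actin-capping regulator now named Carmil1, completed the exonic windows, with depths of 1.42, 1.35 and 1.35. Under all 3 scalings, the windows of Iars2, Wipi2, Krt8, Nbeal2, Cttnbp2nl and Lrrc16a still met the rule, those of Sort1 and Tsc2 did except where the trend was subtracted, and that of Lsm11 met it under none of the 3.

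Intronic windows made up the other 11. Sfpi1, now Spi1, the gene of the haematopoietic transcription factor PU.1 (ENSMUSG00000002111; chromosome 2, 91087501 to 91088000), had RMS 2.31, 0.305 and 0.309. Tenm3, a teneurin gene for neuronal wiring (ENSMUSG00000031561; chromosome 8, 48290501 to 48291000), had 2.79, 0.502 and 0.429. Mtmr10, of the myotubularin family (chromosome 7, 64323001 to 64323500), had 3.23, 0.631 and 0.670. The treated libraries lay within 0.1 of each other in these 3 windows.

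Dgki, a diacylglycerol kinase gene (chromosome 6, 37078501 to 37079000), had RMS 2.56, 0.432 and 0.240. Cadm1, a cell adhesion gene whose product links spermatogenic cells to Sertoli cells (chromosome 9, 47685001 to 47685500), had 2.90, 0.520 and 0.563. Phf17, now Jade1, which encodes a subunit of a histone acetyltransferase complex, had 2.74, 0.537 and 0.510. The windows of Dock4, Btbd11, Amph, F3 and Ap2b1 had depths from 1.36 to 1.47. Amph encodes the endocytic protein amphiphysin, F3 the coagulation starter tissue factor and Ap2b1 an adaptor subunit of clathrin-coated vesicles. The F3 window met the rule under none of the 3 scalings. Of the 20 windows in all, 11 met the rule under all 3 scalings.

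The window of largest depth overall lay in an intron of the noncoding gene AC126552.1 (chromosome 15, 62196001 to 62196500), at 1.75, with RMS 4.58, 0.825 and 0.690. It was named after its values were seen. The nearest protein-coding gene was Myc, 205640 bp away. Intergenic windows filled 8 of the 10 largest depths, and 2 of these 8 lie within the RefSeq span of a coding gene, Spata13 or Cdh13. On chromosome 6 (140384001 to 140384500, 39139 bp from Plekha5) RMS was 2.12, 0.0949 and 0.110. On chromosome 2 (18827001 to 18827500, 14755 bp from Pip4k2a) it was 2.96, 0.383 and 0.221. An intergenic window on chromosome 13 (41552001 to 41552500) was not among these 10, at rank 37 by depth. It was named for its control RMS, the largest outside AC126552.1. Its RMS was 3.59, 0.228 and 0.973, so the treated libraries there were far from equal. This window met the rule under none of the 3 scalings.

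The named windows held 8 at exon 1, including that of Gm10369 and Limk1 above, and exon 1 is meant for any annotated transcript, short ones included. Hk1, the gene of hexokinase 1, which has transcripts particular to spermatogenic cells in the mouse (ENSMUSG00000037012; chromosome 10, 62318001 to 62318500), had RMS 2.43, 0.427 and 0.619. The same window is intronic for other Hk1 transcripts. Spaca4, which encodes an acrosomal membrane protein of sperm (ENSMUSG00000070563; chromosome 7, 45725001 to 45725500), had 2.42, 0.833 and 0.778 in a window that also lies in an intron of Fam83e. Tdrd6, a Tudor domain gene needed for the chromatoid body of spermatids (ENSMUSG00000040140; chromosome 17, 43624001 to 43624500), had 2.11, 0.704 and 0.519. The Hk1 and Spaca4 windows met the rule under all 3 scalings and the Tdrd6 window under quantile normalization only.

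Vwf, the gene of the clotting protein von Willebrand factor, had RMS 2.31, 0.811 and 0.432 in a window that is exon 1, 4 or 34, depending on the transcript. Dbn1, the gene of the actin-binding protein drebrin, had 2.59, 0.992 and 0.641. Stk11ip and Gcn1l1, now Gcn1, a gene of the amino acid starvation response, had 2.28, 0.813 and 0.997, and 2.06, 0.823 and 0.977. The high dose values of these 2 windows lay just under the limit of 1.

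Genes with 2 or more members numbered 13, and 12 of them could be named. Pde10a, a cyclic nucleotide phosphodiesterase gene (ENSMUSG00000023868, 461 kb), had 3 of its 50 listed windows among the members, across 426 kb. They had RMS 2.04, 0.437 and 0.173, then 2.03, 0.953 and 0.788, then 2.14, 0.870 and 0.405. Cmip had 3 of 64, the touching pair above and a window 42.0 kb from it. Over all 50 listed windows of Pde10a the median changes were -0.25 and -0.33, members included, and over the 64 of Cmip they were -0.15 and -0.22, against -0.05 and -0.10 for all windows. Members made up 0.44% of all gene-annotated windows. Both genes were picked for members chosen on the same RMS values. Nothing is read from their counts of members, and no change along the gene is read from these medians.

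The other 10 genes had 2 members each. Robo1, the axon guidance receptor for Slit proteins, had 2 of 36 listed windows, with RMS 2.96, 0.942 and 0.678 in one and 2.45, 0.890 and 0.271 in the other, 9.50 kb apart. Polr3b, a subunit gene of RNA polymerase III, had 2 of 11, both exonic, with control RMS 2.29 and 2.36. Sox5, a transcription factor gene, had 2 of 98 and Wwox, a gene spanning a common fragile site in human, 2 of 223. Dgkh, Enox1, Fstl5, Mast4, Nav2 and Ttll11 made up the rest. Over all listed windows of a gene, members included, the median change at the high dose ran from -0.38 in Robo1 to -0.01 in Ttll11. The same limit holds for these counts and medians.

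Counts of members in the gene lists were small, and their shares are set beside the 0.44% of gene-annotated windows. Shares were 1.37% for spermatid and sperm, 0.556% for spermatogonial and 0.893% for meiosis and piRNA genes. For cilium and axoneme genes the share was 0.342%, and for maternally methylated imprinted genes 0.699%. Each of these rests on 1 or 2 windows. Germline lists came first. Of spermatid and sperm genes, 22 of 34 had listed windows, and 1 of 73 windows was a member. It lay in exon 2 of Acr, the acrosin gene (ENSMUSG00000022622; chromosome 15, 89569501 to 89570000), with RMS 2.49, 0.923 and 0.673. Of spermatogonial genes, 17 of 25 were measured and 1 of 180 windows was a member, in an intron of Gfra1, the co-receptor of spermatogonial stem cells for GDNF (2.37, 0.489 and 0.657). Of meiosis and piRNA genes 1 of 112 windows was a member, that of Tdrd6. Of genes of the cilium and axoneme, 2 of 585 windows were, in introns of Wdr96, now Cfap43 (shared with Itprip), and Dnahc17, now Dnah17, an outer dynein arm gene. Imprinted genes with maternal methylation gave 1 of 143 windows, in an intron of Trappc9.

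Lists on the response to the drug gave 1 or 2 members each. The share was 0.645% for DNA damage and topoisomerase genes and 0.694% for apoptosis and TNF receptor genes. It was 0.431% for drug transport and antioxidant genes and 0.172% for DNA methylation and chromatin genes. These shares lay on both sides of the 0.44% of gene-annotated windows, and each rests on 1 or 2 windows. DNA damage and topoisomerase genes had 45 of 56 measured and 2 of 310 windows among the members. These were exon 5 of Ercc6, a transcription-coupled repair gene (2.03, 0.644 and 0.573), and an intron of Rad51l1, now Rad51b, a gene of homologous recombination (2.34, 0.882 and 0.518). Apoptosis and TNF receptor genes gave 1 of 144, an intron of the death receptor gene Tnfrsf10b. Drug transport and antioxidant genes gave 1 of 232, an intron of Cat, the catalase gene (2.01, 0.748 and 0.689). DNA methylation and chromatin genes gave 1 of 583, in Dot1l, the gene of the histone H3 lysine 79 methyltransferase (2.48, 0.576 and 0.390). Of the mirror classes, the low dose library was alone high in 1 window of the DNA damage list and in 0 of each other list. The high dose library was alone high in 1 window of the axon guidance list, 1 of the developmental list below and 0 of each other list.

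Developmental and signalling lists were larger. Developmental transcription factors had 7 of 1000 windows among the members, or 0.700%, in Foxp1, Pax6, Runx2, Sox5, Tcf7l2 and Zfhx3. The Pax6 window (chromosome 2, 105702501 to 105703000) covers exonic sequence of both Pax6, an eye and brain regulator, and Elp4 on the opposite strand, and had RMS 2.81, 0.908 and 0.755. That of Runx2, a bone regulator, had 2.51, 0.650 and 0.387. Axon guidance genes gave 6 of 739 (0.812%), in Robo1, Slit3, Ntn1, Ntn4 and Efna2. Slit3, a Robo ligand gene, had 2.01, 0.582 and 0.555, and the netrin genes Ntn1 and Ntn4 had 2.04, 0.620 and 0.590, and 2.35, 0.586 and 0.674.

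Wnt, TGF-beta and FGF genes gave 4 of 674, in Fgfr2, Ltbp1, Ltbp2 and Wnt3. Matrix and integrin genes gave 3 of 930, in Col13a1, Hspg2 and Itgav. Voltage-gated channels gave 1 of 721 (Cacna1d) and neurotransmitter receptors 1 of 457 (Grik4, a kainate receptor gene, with 2.502, 0.355 and 0.619). The shares of these lists ran from 0.139% to 0.812%, on both sides of 0.44%. Among markers of other cells that a sperm sample could hold, 1 of 58 leukocyte gene windows (Sfpi1) was a member, or 1.72%. Of epididymal epithelium windows 1 of 21 was (Krt8), or 4.76%, and of Sertoli and Leydig windows 0 of 28. The shares of 1.72% and 4.76% lay above 0.44%, but each rests on 1 window and nothing is read from them. These list windows are mostly gene bodies and do not measure the presence of such cells, whose part in the members' values was not tested.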

How the data were processed

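DNA methylation was measured by MBD-seq in 3 sperm libraries, with 1 per group, on a MiSeq instrument per the series design text. The authors deposited 1 table with a line for each annotation of a 500 bp window. The annotation, per the file headers, came from Ensembl transcripts dated 2013, month 4, day 3, and counted 500 bp on either side of a gene as flank. Per the submitters' processing notes, mm10 was the build. The sources used here do not name the aligner or program. The deposited RPM values are read densities scaled by the authors, per the file headers. The deposited RMS and AMS values are scores that the headers do not define. The deposited ratio of low dose to control RMS was not used in any result. Each of 143198 windows, from 297037 lines, was counted once, and all had RMS above 1 in some library, so the list is filtered.

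Classes, neighbours and lists were counted with Python 3.11.15, pandas 2.3.3 and numpy 2.4.6. The counting of classes and touching neighbours, quantile normalization and trend subtraction were tested on simulated data, and list counts were not. Symbols were matched to RefSeq GRCm38.p6 through synonyms, for 348 of 359 member symbols. With 1 library per group there is no test. Shares over windows are complete counts of the table. Alternatives were 3 scalings, RPM with limits of the same rank, other limits, other pseudocounts, distance and annotation. The RPM limit of like rank was 2.89 for RMS 2 and 1.02 for RMS 1. Genes were named by rule: the 20 largest depths, exon 1 or upstream windows, list genes with up to 4 per list by depth (others by symbol only), genes with 2 or more members, touching members, the windows nearest to a limit and the 5 largest control values. Predicted genes, clones, microRNAs and receptors of smell were left out unless stated. The members, lists and rule were chosen with earlier results of these data known. The result of 1 gene list is not reported here.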

Additional observations from a re-analysis of the deposited data

How the results depend on the processing

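No paired analysis was possible because each group has 1 library. The count of members, 552 as deposited, was 274 after division by library medians, 256 after quantile normalization and 96 after subtraction of the trend. It was 13 with RPM in place of RMS, of which 4 were members as deposited, 9 with an upper limit of 3, 3647 with 1.5 and 37 with a lower limit of 0.5. Most members had control RPM below the upper RPM limit of 2.89, so the loss by RPM was largely set in advance. The high dose library alone was high in 22, 25 and 60 windows under the 3 scalings, 0 by RPM, 0 with an upper limit of 3, 136 with 1.5 and 0 with a lower limit of 0.5. For the low dose library the numbers were 50 with the trend subtracted, 0 by RPM, 0 with a limit of 3, 387 with 1.5 and 0 with 0.5, and the cause was not tested. The share in introns was 22.2% with an upper limit of 3, with 9 windows, and between 35.4% and 42.2% otherwise. The median factor stayed between 2.2 and 2.4 in every setting run. Touching windows had a median change at the high dose of -0.28 with the trend subtracted, -0.30 by RPM, -0.68 with the pseudocount divided by 3 and -0.28 with it multiplied by 3. At the low dose it was -0.57 by RPM and -0.23 with the pseudocount multiplied by 3. Windows 1000 to 2500 bp away had -0.082 (low dose) and -0.15 (high dose). All these medians were below 0. Of the 91 named windows, 53, 52 and 24 met the rule under the 3 scalings and 22 under all of them. Requiring RPM to be 2-fold lower at both doses, chosen after seeing the data, kept 514 members. Unknown read depth per window limits every value, most at low RPM.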
